A study of Mus musculus with 3 samples.

Results

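The Cd36 locus was taken as the window from 17200000 to 17500000 on mouse chromosome 5 (build mm9), and its members were the HA-NUR77 ChIP-seq peaks whose centre lay in that window. It held 62 of the 52946 peaks in the 3 replicate lists, of which replicate 1 gave 14 (of 6777), replicate 2 gave 32 (of 37307) and replicate 3 gave 16 (of 8862). It also held 14 of the 9800 regions obtained by joining touching intervals of the authors' table of sites seen in at least 2 of the 3 replicates. The locus was chosen by peak positions and scores already known from these lists, among them the high rank of its strongest region, so peak numbers and ranks are a description here and were not tested.

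The study profiled where NUR77 binds in RAW264.7, an established mouse macrophage line. All 3 samples belonged to 1 group, RAW264.7 cells stably carrying pINDUCER20b-HA-NUR77, a construct that makes HA-tagged NUR77 when doxycycline is added, and all received 1 µg/mL doxycycline for 18 hours before precipitation with an anti-HA antibody. The binding measured is thus that of an overexpressed, tagged receptor in a cell line. No sample without doxycycline, tag or antibody was analysed here, nor any input, so signal at a peak could not be set against a background sample. Per the labels, the replicates came from different dishes, and whether they were prepared apart in time is not said. Neither read counts nor expression values were part of the files, so sequencing depth is unknown and the activity of Cd36 was not measured. A region without a peak in a list is not shown to be unbound.

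CD36 is a class B scavenger receptor at the cell surface. In macrophages it takes up oxidised low-density lipoprotein and long-chain fatty acids, and it is known for its part in the formation of lipid-laden foam cells. Transcription of Cd36 is classically driven by PPARγ bound with the retinoid X receptor (RXR). NUR77, encoded by Nr4a1, is an orphan nuclear receptor that binds the NBRE sequence as a monomer and can also pair with RXR. In the RefSeq gene order of GRCm38, the nearest protein-coding neighbours of Cd36 are Sema3c, which encodes a secreted semaphorin that guides axons and vessels, and Gnat3, which encodes the taste G-protein subunit gustducin. In that order, which goes by start position, the noncoding gene Gm31612 comes between Cd36 and Gnat3. No gene positions in mm9 were used here, so peaks are given by position and none is placed in an exon, an intron or a promoter of these genes.

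The promoter at the annotated start of Cd36 is shown to give the letters that nuclear receptors could read there. Any other start of the gene was not examined. RefSeq's GRCm38.p6 entry covers chr5:17835847-17836146 on the minus strand, from 250 bases before the annotated start to 50 bases after it. These coordinates belong to another build and cannot be compared with the mm9 positions of the peaks. The capitals mark the single match to the nuclear receptor core AGGTCA, which is read as TGACCT on the strand shown, 228 to 223 bases before the start.
Cd36 promoter: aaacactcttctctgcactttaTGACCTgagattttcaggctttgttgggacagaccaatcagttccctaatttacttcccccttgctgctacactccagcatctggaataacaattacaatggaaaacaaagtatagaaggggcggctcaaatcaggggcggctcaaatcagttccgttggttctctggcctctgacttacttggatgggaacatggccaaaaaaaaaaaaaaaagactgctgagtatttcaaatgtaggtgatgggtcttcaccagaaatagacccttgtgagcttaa
The core AGGTCA occurred on either strand in 16.3% of the 32851 promoters of the table. The NBRE letters AAAGGTCA were in 1.51% of them. The DR1 element, a direct repeat of the core bound by PPAR with RXR, was in 0.0396% of them. The DR5 element, a wider repeat bound by NUR77 with RXR, was in 0.00913%. Each of these longer motifs contains the core, and none of the 3 was found in the Cd36 promoter shown. Only exact letters were counted, so a variant of an element would be missed. A match, or the lack of one, describes these letters at this annotated start only.

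The strongest region of the locus, by mean rank of its peaks over the 3 lists, was at 17382476 to 17383153 on chromosome 5 (678 bp). Its peak scored 638.648 in replicate 1, 958.844 in replicate 2 and 787.806 in replicate 3. Scores are values given by the authors on an unstated scale, so they were read only as ranks within a list. The region ranked 14 in replicate 1 and 15 in replicate 3, within the best 0.207% and 0.169% of those lists. In replicate 2 its score was shared by 549 peaks, so that its rank of 335 there (the best 0.898%) is the mean of a tie. With a mean rank of 121.3 it took place 9 among the 4681 regions that hold a stretch covered by all 3 replicates. Its peaks were 650, 750 and 600 bp wide in replicates 1, 2 and 3, their starts lay within 81 bp and their ends within 97 bp of each other, and 572 bp were covered in all 3 lists. It was also the best-ranked region of the locus in replicate 1 alone, in replicate 3 alone, and on leaving out any single replicate. In replicate 2 alone it tied with 2 other regions of the locus.

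The region at 17347926 to 17348575, 34.56 kb from the strongest one, came next among those of all 3 replicates. Its scores of 342.994, 958.844 and 787.014 in replicates 1, 2 and 3 gave it ranks of 70, 335 and 16, and place 29 of 4681. In replicate 3 it lay directly behind the strongest region, at rank 16 against 15. One more region with the tied score of 958.844 in replicate 2 was at 17360326 to 17360853, but its scores of 99.452 and 116.986 put it at ranks 1019 and 1418 in replicates 1 and 3. It took place 690 of 4681, so the replicate 2 score did not separate regions that the other lists set far apart.

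**Figure D1:**
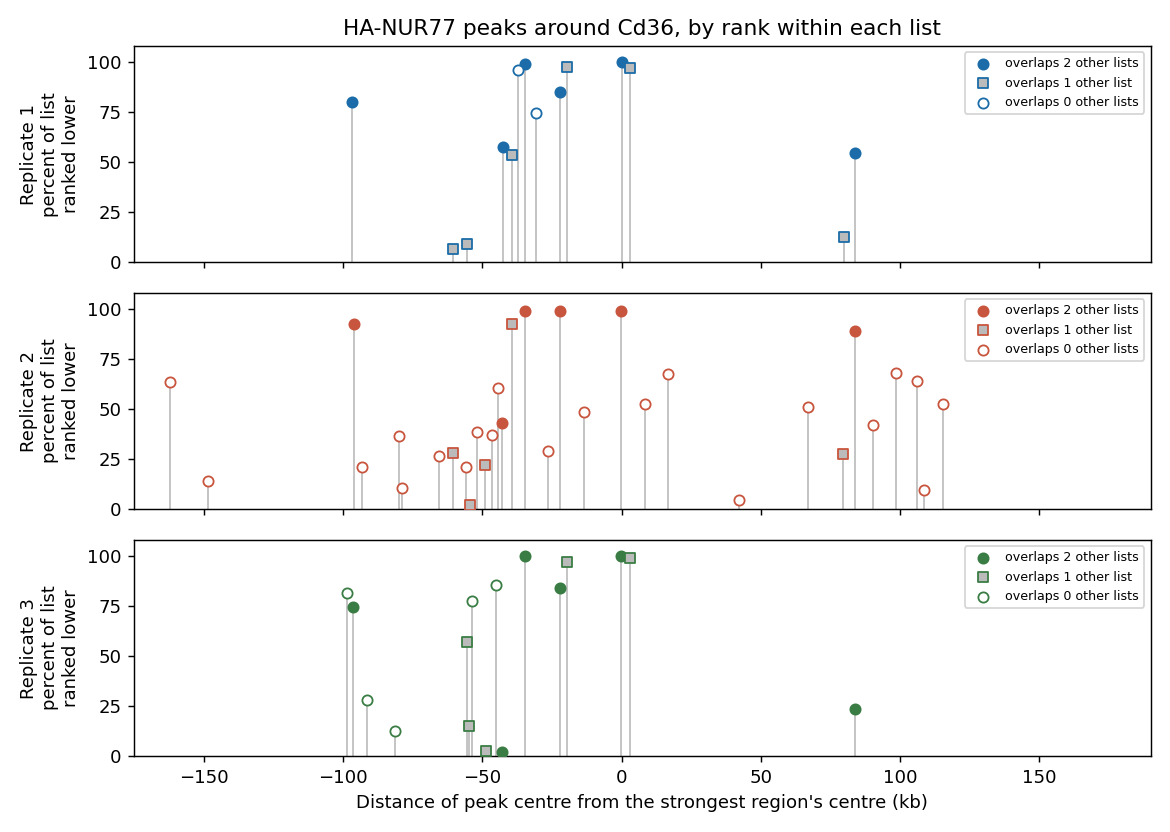
Peaks of each replicate list in the Cd36 window. The horizontal axis is the distance of a peak's centre from the centre of the strongest region in kb, the vertical axis is the percent of the replicate's own list that ranked lower by score, and the symbols show how many of the other lists have an overlapping peak. The best-scored 10% of peaks of replicates 1 and 3 lie within 40 kb of the strongest region, and replicate 2 has further, mostly unshared, lower-ranked peaks on both sides.

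The other 3 regions of all 3 replicates ranked lower. The region at 17286076 to 17286425 had scores of 84.419, 422.451 and 88.299 in replicates 1, 2 and 3, which placed it in the best 19.9%, 7.48% and 25.5% of the lists. Only 81 bp of it were covered by all 3 lists, and the centres of its replicate 1 and replicate 2 peaks lay 419 bp apart, the widest separation of any overlapping pair in the locus. The region at 17466354 to 17466825 scored 48.429, 324.374 and 32.555, with replicate 2 again the list that ranked it highest (best 11.0%, against 45.4% in replicate 1 and 76.2% in replicate 3). The region at 17339776 to 17340122 scored 50.8, 65.406 and 23.033, at 42.6%, 56.8% and 97.9% of the lists of replicates 1, 2 and 3, and it took place 4590 of 4681. The 6 regions of all 3 replicates therefore ran from place 9 to place 4590. These places average raw ranks over lists of unlike length, so the long replicate 2 list weighs most in them. With ranks taken as a percent of each list, an alternative chosen after seeing the data, the same 6 regions kept their order and ran from place 8 to place 4461. They made up 6 of the 14 joined regions of the locus, beside 47.8% of all joined regions.

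Among the remaining 8 regions, 3 were shared by replicates 1 and 2, 3 by replicates 1 and 3, and 2 by replicates 2 and 3. The region at 17385676 to 17386203, 3.12 kb beyond the strongest one, scored 222.184 in replicate 1 and 474.62 in replicate 3, for ranks of 200.5 and 82. The region at 17363054 to 17363525, 19.52 kb before the strongest one, scored 250.403 and 277.602, for ranks of 154 and 281. Both were thus within the best 3.17% of replicates 1 and 3, and neither overlapped a peak of replicate 2, the longest list. The nearest replicate 2 peaks were 2053 to 2503 bp away. Peak numbers in the names rise along the genome, and between the replicate 2 peaks on either side of each of these regions no number was absent, so no numbered peak is missing from the replicate 2 list there. Joined regions of replicates 1 and 3 without a replicate 2 peak were 3 of 14 in the locus and 1.77% of all joined regions. The remaining one, at 17327226 to 17327375, scored 25.474 in replicate 1 (at 91.0% of the list) and 58.002 in replicate 3 (at 42.8%), and a replicate 2 peak ended 31 bp before the replicate 1 peak.

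The best-scored peaks were set against replicate 2 as well, a comparison chosen after these values were seen. Of the best-scored 10% of each list, replicates 1 and 2 had 5 peaks each in the locus and replicate 3 had 4. In replicate 1, 2 of the 5 overlapped replicate 3 and not replicate 2, beside 4.58% of the best-scored 10% of the whole list. In replicate 3, 2 of the 4 overlapped replicate 1 and not replicate 2, beside 5.08%. One more of the 5 replicate 1 peaks, at 17345354 to 17345853 with a score of 201.819 and rank 262, overlapped no peak in either other list, beside 5.02% of the best-scored 10% of that list. The nearest replicate 2 and replicate 3 peaks were 1631 and 2072 bp away, and no peak number was absent there from either list. It lay between the regions centred 39.28 and 34.56 kb before the strongest one.

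**Figure D2:**
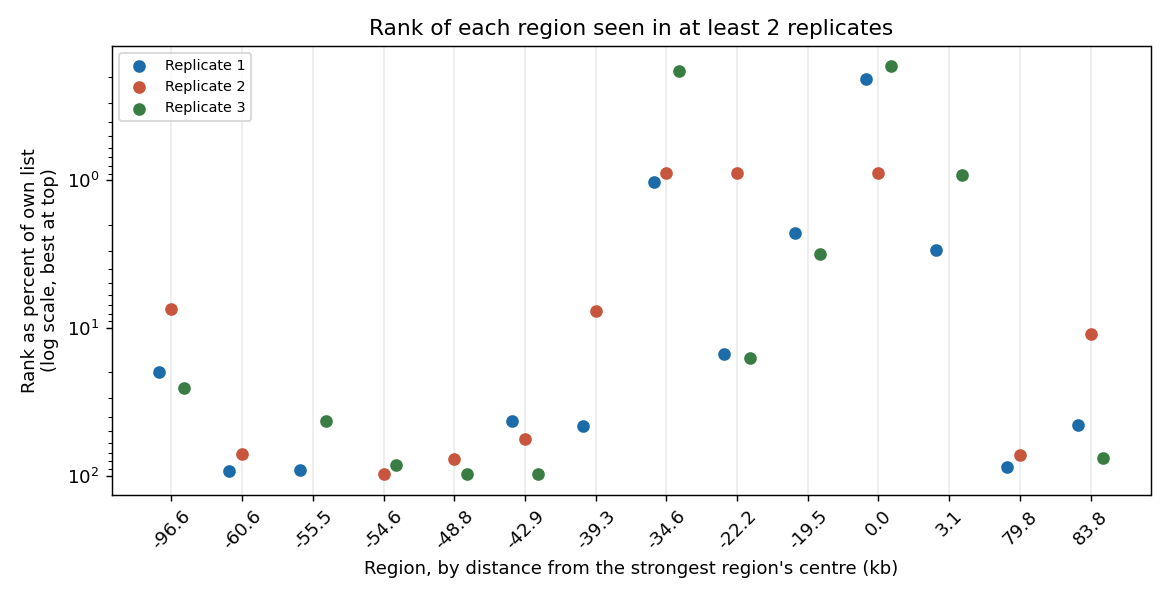
Rank of each of the 14 joined regions in each replicate, as a percent of the replicate's own list on a log scale with the best ranks at the top. Regions are in genome order and named by their distance in kb from the strongest region, and a replicate with no overlapping peak has no point. The strongest region stands at 0.207%, 0.898% and 0.169% in replicates 1, 2 and 3, and the regions at -19.5 and 3.1 kb have no replicate 2 point.

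In the other 5 regions of only a pair of lists, most peaks were weak. The region at 17343354 to 17343722 was ranked differently by its lists, with a score of 414.651 in replicate 2 (best 7.7%) and 47.7 in replicate 1 (best 46.4%), and replicate 3 had no peak within 3035 bp of the replicate 2 peak. The regions at 17322173 to 17322315 and 17462454 to 17462722 were shared by replicates 1 and 2, with scores between 24.777 and 45.994. The regions at 17328223 to 17328270 and 17333926 to 17334072 were shared by replicates 2 and 3, with scores between 23.252 and 39.795. The first of these rested on a replicate 2 peak of 48 bp, the narrowest in the locus. All 4 were in the lower-ranked 50% of both lists that held them. At these 4, the list without a peak lacked numbers between its flanking peaks, so it may not be complete there. Replicate 3 lacked 3 numbers at 17322173 and 2 at 17462454. Replicate 1 lacked the same 2 numbers at 17328223 and 17333926. At 17343354 replicate 3 lacked none.

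Sharing between lists in the locus differed by list. In replicate 1, 12 of 14 peaks overlapped a peak of another replicate (85.7%, 95% Wilson interval 60.1 to 96.0), beside 94.3% of its whole list. In replicate 2 this was 11 of 32 peaks (34.4%, 20.4 to 51.7), beside 25.7%. In replicate 3 it was 11 of 16 peaks (68.8%, 44.4 to 85.8), beside 93.2%. Overlap with both other lists was found for 6 peaks in each list, which is 42.9% of the replicate 1 peaks (beside 69.1% of the list), 18.8% of those of replicate 2 (beside 12.7%) and 37.5% of those of replicate 3 (beside 52.8%). These intervals cover counting error only, and peaks of a single locus are not independent.

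By pair of lists, the locus stood furthest from the whole lists in overlap with replicate 2. Of the replicate 3 peaks, 8 of 16 overlapped replicate 2 (50.0%, 28.0 to 72.0), beside 91.2% of the list. Of the replicate 1 peaks, 9 of 14 overlapped replicate 2 (64.3%, 38.8 to 83.7), beside 91.8%. Overlap between replicates 1 and 3 was nearer to the lists as a whole, at 9 of 14 replicate 1 peaks (64.3%) beside 71.6%, and 9 of 16 replicate 3 peaks (56.2%) beside 54.8%. Of the 32 replicate 2 peaks, 9 overlapped replicate 1 (28.1%, beside 16.7%) and 8 overlapped replicate 3 (25.0%, beside 21.7%). These shares were not tested, as the locus was chosen with results known.

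Replicate 1 had 2 unshared peaks, replicate 2 had 21 and replicate 3 had 5. Those of replicate 2 scored between 25.032 and 129.404 with a median of 58.462, and the best of them was at 32.2% of its list. Its 11 shared peaks had a median score of 324.374. In replicate 3 the unshared peaks had a median rank at 22.6% of the list, against 25.5% for its 11 shared peaks. They included peaks at 17337826 to 17337975 (score 125.102), 17284176 to 17284475 (106.903) and 17329076 to 17329375 (95.303). The first of these lay 147 bp from a replicate 2 peak at 17338123 to 17338622 (103.422). Between the flanking replicate 1 peaks, 2, 1 and 2 numbers were absent at these 3 peaks, in the order given. The first and the last lie between the same replicate 1 peaks, so the same 2 numbers are meant. Between the flanking replicate 2 peaks, 1 number was absent at the first and none at the others. The other unshared replicate 1 peak, at 17351854 to 17352303, scored 72.626. Between the replicate 2 peaks that flank it, 1 peak number was absent, so that stretch of the replicate 2 list may not be complete. Between the first and last peak of each list in the locus, replicate 1 lacked 4 numbers, replicate 2 lacked 6 and replicate 3 lacked 7. The number absent from replicate 1 at 17284176 falls before its first peak in the locus and is not among the 4.

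The regions were not spread evenly over the window. Of the 14 joined regions, 11 lay in the 64.0 kb from 17322173 to 17386203, with 1 in the 122.2 kb before it and 2 in the 113.8 kb after it. These borders were set after the positions were seen. The same core held 11 of 14 replicate 1 peaks, 14 of 32 replicate 2 peaks and 11 of 16 replicate 3 peaks. Every best-scored 10% peak of replicates 1 and 3 in the locus was in the core, as were 4 of the 5 of replicate 2. The exception was the replicate 2 peak of the region at 17286076 to 17286425.

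Neighbouring centres of the 14 regions lay a median of 5.06 kb apart, with a range of 0.95 to 76.65 kb. Over all joined regions the median distance between neighbours was 53.49 kb. Joined at 12.5 kb or less, the regions formed a chain of 9 from 17322173 to 17363525, pairs at 17382476 to 17386203 and at 17462454 to 17466825, and a single region at 17286076. The longest gap, after the strongest pair, held no peak of replicates 1 and 3 and 4 peaks of replicate 2 with scores of 25.032 to 127.965. The 6 regions of all 3 replicates lay a median of 22.23 kb apart. Both the number of regions and their spacing depended on having 3 lists: there were 8 regions without replicate 1, 9 without replicate 2 and 9 without replicate 3, with median spacings of 12.3, 12.5 and 15.1 kb. A region then has to be in both lists that remain, which lowers the count by construction.

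**Figure D3:**
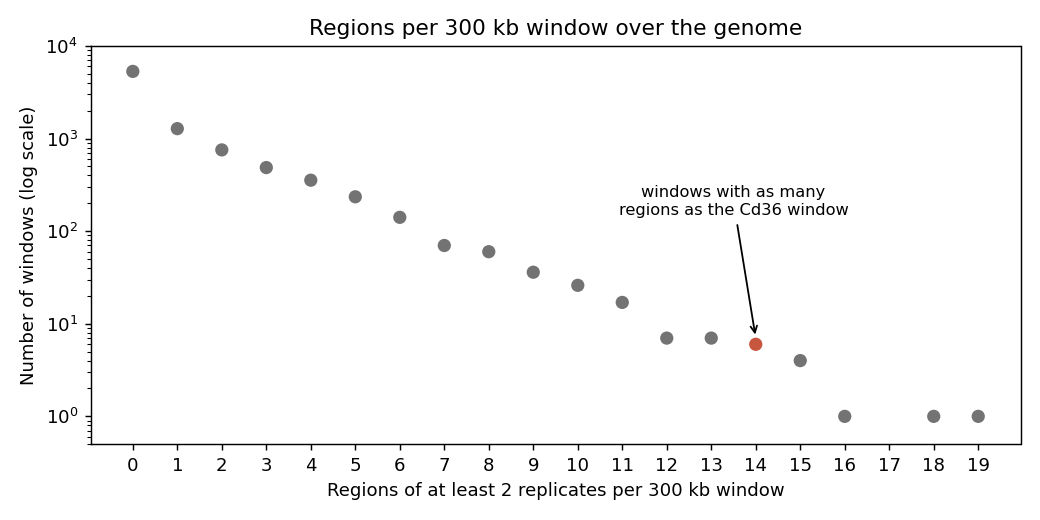
Number of 300 kb windows over all chromosomes (vertical axis, log scale) by the number of joined regions with their centre in the window (horizontal axis). The coloured point marks windows with 14 regions, as many as the Cd36 window, and 5310 of the 8796 windows held none.

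Set beside all 8796 windows of 300 kb, tiled so that the Cd36 window was one of them, the locus was dense in each list. It had 14 joined regions, against a mean of 1.11 per window, and 0.148% of windows (13) had at least as many. For replicate 1 the window held 14 peaks against a mean of 0.77, and 0.0682% of windows had at least as many. For replicate 2 it held 32 against 4.24, with 0.0568% of windows at least as high, and for replicate 3 it held 16 against 1.01, with 0.0682%. Regions of all 3 replicates numbered 6 against a mean of 0.53, and 0.716% of windows had at least as many. The windows include sequence that may not be mappable. The ratio of replicate 2 peaks to replicate 1 peaks was 2.29 in the locus, against 5.5 over the whole lists, and that to replicate 3 peaks was 2.0, against 4.21.

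Peaks in the locus were 212 to 650 bp wide in replicate 1, 48 to 750 bp in replicate 2 and 150 to 650 bp in replicate 3. Their median widths were 475, 500 and 331 bp, beside 350, 500 and 350 bp for the whole lists. The joined regions had a median width of 359.5 bp, beside 350 bp over all joined regions, and those of all 3 replicates 500 bp beside 450 bp. Where peaks of replicates 1 and 2 overlapped, the median distance between their centres was 88 bp, beside 41 bp for the whole lists. This was 72 beside 46 bp between replicates 1 and 3, and 37 beside 42 bp between replicates 2 and 3, over 9, 9 and 8 overlapping pairs. Locus peaks ranked at a median of 22.8% of the list in replicate 1 and 24.1% in replicate 3, but at 57.3% in replicate 2, where 14 of 32 were in the higher-scored 50%.

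The edges of the window fell among further regions. The first region inside was at 17286076 to 17286425 and the nearest outside before it at 17197876 to 17198375, which was called in all 3 lists with scores of 24.871, 225.471 and 40.63 in replicates 1, 2 and 3. The last region inside was at 17466354 to 17466825. The nearest outside after it, at 17505676 to 17505875, was called in replicates 2 and 3 with scores of 542.978 and 59.934. With the window widened by 100 kb on each side there were 20 regions, of which 10 were of all 3 replicates.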

How the data were processed

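HA-NUR77 ChIP-seq peaks of 3 replicates of 1 group were analysed. The authors deposited, for each replicate, a list of peaks with a peak score of unstated scale, used here only for ranks within a list (ties share their mean rank). The build is mm9, per the submitters' processing notes. Peak names are of the form MACS gives, per the deposited lists. For its version and threshold, the aligner and the use of control reads, no source used here gives details. Peaks were called per replicate. A series-wide table names the replicates covering each interval, another value of the authors. Its 26 intervals in the locus had the borders rebuilt from the lists. Their replicate names matched for 14 as written and for all 26 with replicates 2 and 3 exchanged. Over the whole series, 13753 of 19164 intervals matched as written and all 19164 with the exchange. Which naming is right is not known, and replicates follow the lists here. The window, the member peaks, motifs and alternatives were chosen with earlier results of these data known. Every region of the window is named. Overlap meant at least 1 bp. Read depth is unknown. Positions are 1-based. The work ran in Python 3.11.15 (scipy 1.17.1, pandas 2.3.3, numpy 2.4.6), figures in matplotlib 3.10.9, and the overlap code was tested on simulated peaks.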

Additional observations from a re-analysis of the deposited data

How the results depend on the processing

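The strongest region stayed first of the locus under each alternative run except in replicate 2 alone, where it shared rank 335 with 2 other regions. Its mean rank of 121 was 14.5 to 175 on leaving out each replicate. The 62 peaks of the locus were 35 in the higher-scored 50% of each list and 32 with equally many best-scored peaks from each, which follows from the shorter lists. They were 30 to 48 on leaving out each replicate, lowest without replicate 2. The 14 regions of at least 2 replicates were 8 and 9 with those shorter lists, and 8 to 9 on leaving out each replicate. The 6 regions of all 3 replicates were 10 in the widened window and 4 where peaks had to share 50% of their length. Leaving out a replicate gives no such count. The spacing of 5.06 kb was 7.21 kb in the widened window, which adds area, 22.2 kb for regions of all 3 replicates, and 12.3 to 15.1 kb on leaving out each replicate. The mean share of peaks overlapping another list was 62.9% ± 26.2 (SD, n = 3). It was 77.0% with equally many best-scored peaks from each list and 58.5% in the higher-scored 50% of each. It was 48.8% where peaks had to share 50% of their length and 49.6% with centres within 100 bp. The share was 37.5% without replicate 1, 60.3% without replicate 2 and 46.2% without replicate 3, with 1 list fewer to overlap. The SD spans lists of unlike length, with 34.4% in replicate 2 and 85.7% in replicate 1. No paired analysis was possible because the samples form 1 group. Motifs in the regions and other lipid uptake genes need an mm9 genome or annotation and were not run.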
